A study of Mus musculus with 15 samples.

Results

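Adding DMXAA to BO-112 was examined in 8 mouse tumours, 4 injected with BO-112 alone and 4 with BO-112 and DMXAA together, out of the 15 tumours of the study. They were chosen by their labelled treatment, and all 17712 measured genes were compared. The tumours were MC38, a colon carcinoma line from C57BL/6 mice, grown under the skin of C57BL/6 mice to about 5 mm and collected 24 h after 1 injection of 100 µL into the tumour. BO-112 was given at 50 µg and DMXAA at 100 µg. The other tumours had vehicle, PBS with 5% DMSO and 5% glucose (n = 3), or DMXAA alone (n = 4), and serve below as reference levels. Poly-A RNA was sequenced with strand information in paired reads of 150 bp.

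BO-112 is poly I:C, a double-stranded RNA mimic, complexed with a carrier. Double-stranded RNA is read in the cytosol by RIG-I and MDA5, which signal through MAVS, and in endosomes by TLR3, which signals through TRIF. DMXAA binds mouse STING, the adaptor that normally answers cyclic dinucleotides made by cGAS on cytosolic DNA. All of these routes meet at the kinase TBK1 and the factors IRF3 and NF-kappaB, which switch on interferon-beta and inflammatory cytokines. Interferon-beta in turn acts through its receptor to induce the interferon-stimulated genes.

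In the combination tumours, 311 genes were lower than in the BO-112 tumours and 51 were higher, of 17712 tested, at an adjusted p under 0.05. Those are 1.76% and 0.288% of the genes, 2.04% together, and 85.9% of the called genes were lower. Among the lower genes were Ifnb1, which encodes interferon-beta, 33 of 41 measured interferon-stimulated genes and 5 of 26 inflammatory cytokine genes. The median log2 fold change was -0.56 over the lower genes, 0.68 over the higher genes and 0.01 over all genes, and 30 lower and 10 higher genes passed 2-fold. In 361 of the 362 called genes the 4 values of each group did not overlap, and the exception was Edn1, the endothelin-1 gene. Over all genes, the combination tumours lay entirely below in 6.13% and entirely above in 4.05%. The lack of overlap comes from the same values as the calls and adds no support.

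**Figure D1:**
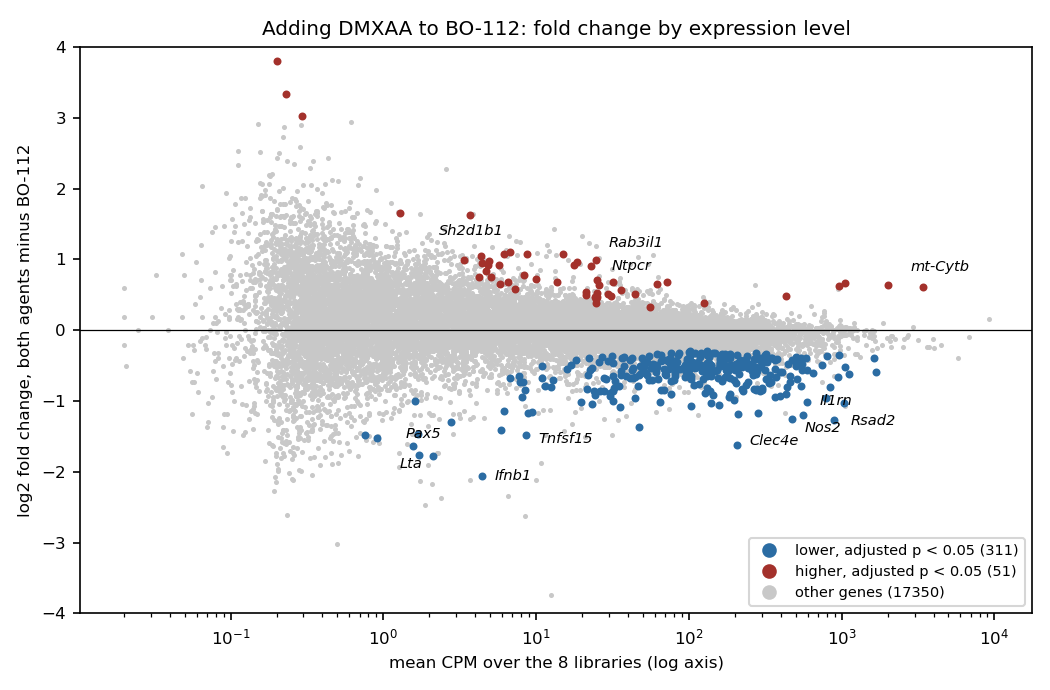
Each point is a gene, with its mean CPM over the 8 libraries on the x axis (log scale) and its log2 fold change, both agents minus BO-112, on the y axis. The 311 lower genes in blue lie mostly above 10 CPM, while the 51 higher genes in red are fewer and lie further left.

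These calls depended on which libraries set the estimate of spread. Fitted to all 15 libraries, the same comparison called 0 genes, with 1690 at an unadjusted p under 0.05 and a smallest adjusted p of 0.0839. The median SD of a gene between tumours, on the log2 CPM scale, was 0.176 with BO-112, 0.210 with both agents, 0.188 with vehicle and 0.433 with DMXAA. Fitted to all 15 libraries with limma-voom and array quality weights, an alternative added after seeing the data, it called 369 genes, 262 of them lower. Of the 362 genes 247 were called there, and 57 of the 79 named ones, with Nos2, Gbp2, Gbp3, Gbp5, Gzmb, Samd9l, Cd274, Cxcl10, Ly6c2, H2-Q7, Flt1, Zbp1, Gsdmd, Cfb, Nr4a3, Tlr3 and Irf7 among those that were not. All 362 genes kept their sign in every fit that left out 1 of the 8 libraries, and 66 kept their call in all 8 fits. The number of called genes in those fits was 75 without BO-112 tumour 2, 128 without combination tumour 4, 135 without BO-112 tumour 3, 151 without BO-112 tumour 1, 177 without combination tumour 1 and 193 without combination tumour 3. It was 293 without BO-112 tumour 4 and 528 without combination tumour 2. Scaled by total count alone, 99 genes were lower and 76 higher, so that 56.6% of the calls were lower. That scaling kept 52 of the 79 named calls and ended those of Usp18, Cxcl10, Cxcl11, H2-Q7, Lta, Nfkbia, Tnip1, Clec4e, Fpr2, Ly6c2, Ms4a6c, Cd274, Pvr, Flt1, Casp4, Zbp1, Gsdmd, Cfb, Junb, Nr4a3, Adtrp, Heatr9, Edn1, Nnt, Ddx58, Tlr3 and Irf7.

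The libraries held 15677864 to 19070268 reads with BO-112 and 12725316 to 16133547 with both agents. BO-112 tumour 1 stood apart in skeletal muscle genes: its 15 measured genes of this kind summed to 794 CPM, against 117 to 132 CPM in the other BO-112 tumours and 124 to 140 CPM in the combination tumours. Acta1, the muscle actin gene, was at 163 CPM there and under 1 CPM in the other BO-112 tumours. Adipocyte markers summed to 658 CPM in BO-112 tumour 2, against 201 to 221 CPM in the other BO-112 tumours and 216 to 331 CPM in the combination tumours. Erythroid and platelet genes summed to 260 CPM in BO-112 tumour 4 and 120 CPM in tumour 1, against 29.4 and 32.8 CPM in the other BO-112 tumours and 26 to 80 CPM in the combination tumours. The part of these in the calls was not tested beyond the fits that left the tumours out. Without tumour 1 of both groups, a fit added after seeing the data, 1 gene was called and all 362 genes kept their sign. Of 15 epithelial and carcinoma markers, 8 were measured, and the E-cadherin gene Cdh1 was at 4.91 to 11.2 CPM with BO-112 and 9.11 to 25.9 CPM with both agents. In whole tumours, fewer cells of a type and less RNA per cell cannot be told apart.

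Ifnb1 had the largest decrease among the named lower genes. Its level in BO-112 tumours 1 to 4 was 6.36, 11, 5.25 and 6.19 CPM, and in combination tumours 1 to 4 it was 1.62, 2.27, 1.17 and 1.65 CPM. The groups were well apart, and the lowest BO-112 value was above every combination value. The log2 fold change was -2.05 ± 0.26 (SE, adjusted p = 0.00852), a 4.15-fold difference. These values rest on 79 to 183 reads per library with BO-112 and 16 to 37 with both agents. In vehicle tumours Ifnb1 was at 0.107 ± 0.0421 CPM (SD, n = 3) and with DMXAA alone at 0.330 ± 0.192 CPM (SD, n = 4), so the combination tumours lay between these and BO-112 alone. Among 8 measured genes of the interferons and their receptors, Ifnb1 alone was called, against 2.04% of all genes. In 2 of the 8 the combination tumours lay entirely below the BO-112 tumours, as in 6.13% of all genes. The receptor chain Ifnar1 had a log2 fold change of -0.11 ± 0.09 (adjusted p = 0.574) and Ifnar2 one of -0.29 ± 0.11 (adjusted p = 0.187).

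Of 41 measured type I interferon-stimulated genes, 33 were lower and none higher, against 1.76% lower over all genes. Their median log2 fold change was -0.62, all 41 had a negative value, and in 37 the combination tumours lay entirely below the BO-112 tumours, as in 6.13% of all genes. No member had the combination tumours entirely above, as 4.05% of all genes did. The 41 genes summed to 16963, 20207, 17357 and 17752 CPM in BO-112 tumours 1 to 4, and to 12373, 13082, 9235 and 10103 CPM in combination tumours 1 to 4. The combination tumours were thus all below the BO-112 tumours, and tumours 3 and 4 were the lowest. In vehicle tumours the sum was 2792 to 4930 CPM and with DMXAA alone 6144 to 7511 CPM. The count of 33 was 18 without BO-112 tumour 1, 8 without BO-112 tumour 2, 17 without BO-112 tumour 3, 20 without combination tumour 3, 13 without combination tumour 4 and 16 with scaling by total count. It was 0 without tumour 1 of both groups, where the median was -0.69.

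Rsad2, which encodes the antiviral enzyme viperin, was at 1186, 1452, 1249 and 1160 CPM with BO-112 and at 603, 670, 357 and 505 CPM with both agents. The highest combination value was far under the lowest BO-112 value. The log2 fold change was -1.27 ± 0.17 (adjusted p = 0.0102). Cmpk2, the neighbouring mitochondrial nucleotide kinase gene, fell by 1.17 ± 0.17 on the log2 scale (adjusted p = 0.0121), from 303 to 487 CPM to 137 to 209 CPM. Isg15, a ubiquitin-like protein conjugated to other proteins in virus-infected cells, was at 507, 657, 555 and 535 CPM with BO-112 and 365, 354, 257 and 245 CPM with both agents. Its log2 fold change was -0.90 ± 0.14 (adjusted p = 0.0121). Ifit3, a member of the family that binds foreign RNA, was at 987 to 1189 CPM against 410 to 673 CPM, with a log2 fold change of -0.96 ± 0.14 (adjusted p = 0.0119).

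Ifit2 and Ifit1 of the same family had log2 fold changes of -1.02 ± 0.13 (adjusted p = 0.00852) and -0.78 ± 0.14 (adjusted p = 0.0198). Herc6, the mouse ligase that attaches Isg15, fell by 0.76 ± 0.10 on the log2 scale (adjusted p = 0.00852), and the antiviral gene Samd9l by 0.63 ± 0.10 (adjusted p = 0.0102). Ifit1 lost its call without BO-112 tumour 2, BO-112 tumour 3 or combination tumour 3, with a highest adjusted p of 0.0663. The other 7 called genes among these kept theirs in all 8 fits that left out a library. Bst2, the tetherin gene, had -0.60 ± 0.17 (adjusted p = 0.115) and overlapping groups. Reads of Ifit3 and its near copy Ifit3b could be shared between them, so these values are uncertain in how they divide.

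**Figure D2:**
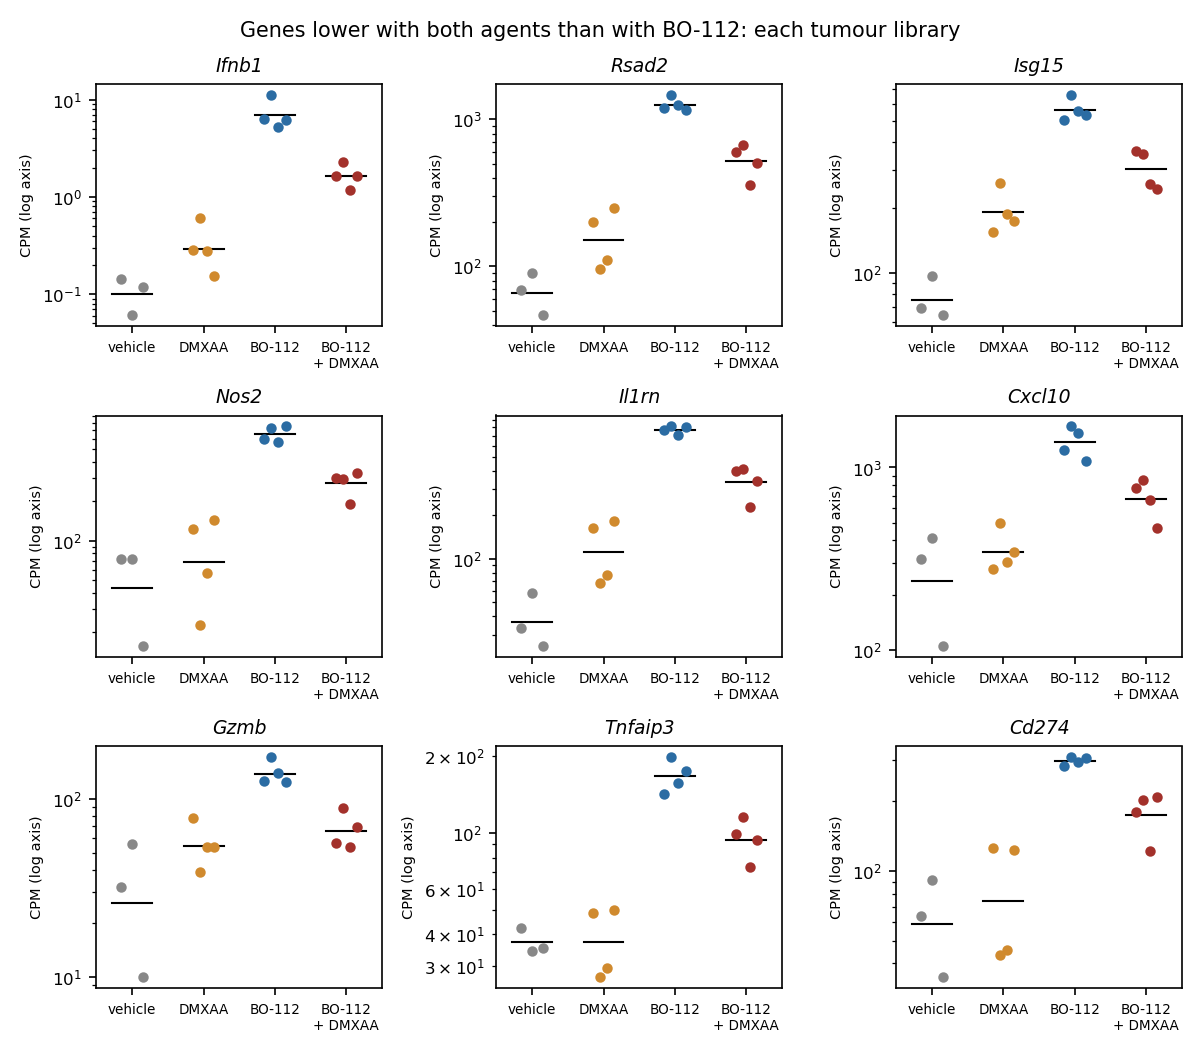
Each dot is a tumour library, with CPM on a log axis for 9 genes in the 4 groups and black lines at the geometric means. In every panel the BO-112 tumours are the highest group and the combination tumours lie between them and the vehicle tumours' mean.

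Interferon-stimulated genes carry response elements near their start. The 200 bases ahead of the start are shown for 3 lower genes of that list, in the gene's own direction, from the RefSeq promoter table on GRCm38.p6, with matches to the interferon-stimulated response element, here a pair of GAAA blocks 2 bases apart read on either strand, in capitals. Overlapping matches run together. Rsad2 (chr12:26456453-26456652, minus strand) had 1 match, Ifit3 (chr19:34583329-34583528, plus strand) had 2 and Isg15 (chr4:156200819-156201018, minus strand) had 3.
Rsad2: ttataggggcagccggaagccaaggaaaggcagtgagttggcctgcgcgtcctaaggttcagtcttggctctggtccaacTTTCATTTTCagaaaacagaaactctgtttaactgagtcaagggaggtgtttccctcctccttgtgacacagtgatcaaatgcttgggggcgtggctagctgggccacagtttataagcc
Ifit3: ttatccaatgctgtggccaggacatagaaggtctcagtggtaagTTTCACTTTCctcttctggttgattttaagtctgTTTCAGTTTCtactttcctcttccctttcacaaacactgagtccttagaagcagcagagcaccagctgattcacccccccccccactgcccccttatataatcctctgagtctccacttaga
Isg15: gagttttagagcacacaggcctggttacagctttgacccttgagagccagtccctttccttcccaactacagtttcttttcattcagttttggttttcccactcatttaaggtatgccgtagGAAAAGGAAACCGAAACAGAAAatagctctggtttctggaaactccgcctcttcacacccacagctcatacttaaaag
For Ifnb1 (chr4:88522877-88522976, minus strand) a stretch of 100 bases is shown, with a match to the NF-kappaB decamer in capitals. Its window held no pair of GAAA blocks exactly 2 bases apart, and pairs at other spacings were not searched for. This stretch was chosen after the NF-kappaB match was seen.
Ifnb1: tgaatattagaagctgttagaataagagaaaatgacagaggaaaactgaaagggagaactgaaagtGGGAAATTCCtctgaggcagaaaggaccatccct
Rsad2, Ifit3 and Isg15 had the smallest p among list genes with a match in these 200 bases and a matching transcript start. Ifit2, Herc6, Ifih1, Samd9l and Cmpk2 had smaller p than Isg15 and were passed over for lack of such a match or start. In Ifih1 the match lies past the start and is not shown. Promoter windows of 300 bases were matched by symbol for 242 of the 311 lower genes, 37 of the 51 higher genes and 11863 measured genes. The response element was in 21.1% of the lower genes, 5.41% of the higher genes and 3.9% of the measured genes. The NF-kappaB decamer was in 12.4%, 2.7% and 6.34%. A match describes the letters only and shows no binding.

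Genes that sense foreign nucleic acid were lower in 14 of 27 measured genes and higher in none, against 1.76% and 0.288% of all genes, with a median log2 fold change of -0.36. Both RNA sensors of the cytosol were among the lower genes. Ifih1, Ddx58, Dhx58, Irf7, Zbp1 and Eif2ak2 are also members of the interferon-stimulated list above. Ifih1, which encodes MDA5, was at 250, 284, 254 and 241 CPM with BO-112 and 170, 198, 154 and 154 CPM with both agents, a log2 fold change of -0.61 ± 0.09 (adjusted p = 0.00959). Ddx58, which encodes RIG-I, was at 534, 550, 524 and 559 CPM against 427, 438, 374 and 381 CPM (-0.42 ± 0.08, adjusted p = 0.018), and the groups did not overlap. Tlr3 fell by 0.45 ± 0.09 on the log2 scale (adjusted p = 0.0258), and Irf7, the factor that amplifies interferon production, by 0.81 ± 0.16 (adjusted p = 0.0365). Tmem173, which encodes STING, the target of DMXAA, was at 49.9, 69.5, 48.9 and 48.1 CPM with BO-112 and 46.6, 61.9, 55.0 and 51.5 CPM with both agents. The groups overlapped throughout. Its log2 fold change was 0.00 with a 95% interval from -0.27 to 0.27, and that of Cgas was -0.07 with an interval from -0.31 to 0.17. The values of Tlr3, Ddx58, Irf7, Tmem173 and Cgas were chosen for display after all values had been seen. The count of 14 was 7 without BO-112 tumour 1, 5 without BO-112 tumour 2, 6 without BO-112 tumour 3 or combination tumour 4, 9 without combination tumour 1 or 3, 5 with scaling by total count and 0 without tumour 1 of both groups.

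In the Ifi200 family, whose products include DNA-binding proteins, 4 named genes were lower, against 1.76% of all genes. They were named for a small p or a large decrease, so nothing is read from that count. The other members of the family were not counted. Ifi205 was at 263, 344, 278 and 270 CPM with BO-112 and 143, 169, 104 and 102 CPM with both agents, with a log2 fold change of -1.18 ± 0.16 (adjusted p = 0.0112). Ifi211, Ifi203 and Ifi204 fell by 0.83 ± 0.11, 0.83 ± 0.12 and 0.74 ± 0.11 on the log2 scale (adjusted p = 0.00852, 0.00959 and 0.00959). These genes are close copies of each other, and reads may be shared between them. Ifih1 and the 4 Ifi200 genes kept their calls without any 1 library. Ddx58 lost its call without BO-112 tumour 1 or 2 or combination tumour 4 (highest adjusted p = 0.0663), Tlr3 without BO-112 tumour 2 or 3 or combination tumour 3 or 4 (0.0809), and Irf7 without any of the BO-112 tumours or combination tumour 4 (0.108).

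Interferon-gamma response genes, with a median of -0.45, were lower in 15 of 30 and higher in none, against 1.76% and 0.288% of all genes. Nos2, the inducible nitric oxide synthase of activated macrophages, was at 605, 724, 568 and 749 CPM with BO-112 and 302, 297, 192 and 330 CPM with both agents. Every combination tumour was below every BO-112 tumour, and the log2 fold change was -1.26 ± 0.16 (adjusted p = 0.00959). The guanylate-binding protein genes, which attack vacuoles of intracellular microbes, included Gbp5 (-0.86 ± 0.13, adjusted p = 0.0108), Gbp3 (-0.69 ± 0.10, adjusted p = 0.00941) and Gbp2 (-0.62 ± 0.10, adjusted p = 0.0125). Gbp2 was at 1190 to 1507 CPM with BO-112 and 798 to 1025 CPM with both agents. These 4 genes kept their calls in all 8 fits that left out a library. The guanylate-binding protein genes are near copies, which makes the split between them uncertain. The count of 15 was 9 without BO-112 tumour 1 or combination tumour 1, 4 without BO-112 tumour 2, 5 without BO-112 tumour 3, 7 without combination tumour 3 and 8 without combination tumour 4, and 5 with scaling by total count. It was 0 without tumour 1 of both groups.

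Antigen presentation was described by the MHC genes. Of 23 MHC class I and peptide-loading genes, 1 was lower, H2-Q7, and none higher, against 1.76% and 0.288% of all genes. H2-Q7 was at 309 to 391 CPM with BO-112 and 213 to 276 CPM with both agents (-0.43 ± 0.10, adjusted p = 0.0449), and it kept its call in only 1 of the 8 fits that left out a library. Reads of H2-Q7 may be shared with other class I genes. The 23 genes had a median log2 fold change of -0.28 and all 23 had a negative value. In 15 of them the combination tumours lay entirely below the BO-112 tumours, as in 6.13% of all genes. Tapbp, the peptide editor tapasin, was at 880 to 1104 CPM against 618 to 828 CPM without overlap (-0.45 ± 0.11, adjusted p = 0.0525). Of 12 MHC class II genes none was called and the median was 0.06. Ciita, the class II transactivator, was at 3.51, 3.79, 7.32 and 2.62 CPM with BO-112 and 3.16, 19.3, 9.36 and 14 CPM with both agents. Combination tumour 1 lay within the BO-112 range, and the log2 fold change was 1.24 ± 0.58 (adjusted p = 0.325).

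Inflammatory cytokine genes, with a median of -0.56, were lower in 5 of 26 and higher in none, against 1.76% and 0.288% of all genes. Il1rn, the interleukin-1 receptor antagonist, was at 770, 813, 707 and 804 CPM with BO-112 and 399, 412, 226 and 341 CPM with both agents (-1.20 ± 0.17, adjusted p = 0.0115). Il15, which sustains NK and memory T cells, was at 32.6, 49.5, 38.6 and 37.3 CPM against 24.8, 23.9, 18.2 and 18.5 CPM (-0.88 ± 0.14, adjusted p = 0.0128). Il27, a cytokine of activated myeloid cells, was at 8.49 to 15.4 CPM against 4.61 to 6.38 CPM (-1.17 ± 0.19, adjusted p = 0.0137). Lif, a cytokine of the interleukin-6 family, fell by 0.64 ± 0.11 on the log2 scale (adjusted p = 0.0173). In these 4 genes the groups did not overlap.

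Other cytokine genes did not pass the test. Il12b, a subunit of interleukin-12 and interleukin-23, was at 18.8, 57.0, 37.2 and 47.3 CPM with BO-112 and 16.9, 20.1, 12.1 and 14.4 CPM with both agents (-1.25 ± 0.34, adjusted p = 0.13), with BO-112 tumour 1 inside the combination range. Tnf was at 37.8, 44.7, 35.5 and 19.5 CPM against 25.9, 28.3, 30.4 and 23.5 CPM (-0.29 ± 0.23, adjusted p = 0.554). Il6 was at 3.67, 6.25, 2.73 and 9.95 CPM against 3.16, 3.19, 3.07 and 3.86 CPM (-0.59 ± 0.34, adjusted p = 0.4). For both, BO-112 tumours were spread widely and overlapped the combination tumours. From outside this list, the lymphotoxin gene Lta fell by 1.77 ± 0.40 on the log2 scale (adjusted p = 0.0449), on 30 to 101 reads with BO-112 and 7 to 19 with both agents. Tnfsf15, a TNF-family ligand, fell by 1.48 ± 0.25 (adjusted p = 0.0167), from 10.4 to 15.9 CPM to 2.49 to 5.83 CPM. Il1rn and Il15 kept their calls without any 1 library. Il27 and Tnfsf15 lost theirs without BO-112 tumour 2 (adjusted p = 0.055 and 0.06), Lif without BO-112 tumour 1 or 2 (highest 0.0663) and Lta in 6 of the 8 fits (highest 0.116).

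Inhibitors of signalling are themselves induced by it. Of 17 such genes, with a median of -0.34, 4 were lower and none higher, against 1.76% and 0.288% of all genes. Tnfaip3, which encodes the NF-kappaB inhibitor A20, was at 142, 197, 156 and 174 CPM with BO-112 and 99.1, 115, 73.5 and 93.3 CPM with both agents (-0.82 ± 0.14, adjusted p = 0.0166). Its partner Tnip1 fell by 0.69 ± 0.13 (adjusted p = 0.0274) and Nfkbia, the inhibitor IkappaB-alpha, by 0.54 ± 0.10 (adjusted p = 0.0195), on the log2 scale. Usp18, which removes Isg15 and blocks the interferon receptor, was at 213, 296, 229 and 228 CPM against 155, 164, 113 and 95.6 CPM (-0.90 ± 0.18, adjusted p = 0.0358). The groups did not overlap in any of the 4. Tnfaip3 lost its call without BO-112 tumour 2 or combination tumour 4 (highest adjusted p = 0.0585), Nfkbia in 4 of the 8 fits that left out a library (0.0699), Tnip1 in 5 (0.0826) and Usp18 in 6 (0.125).

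Chemokine genes were grouped by the cells they attract. The 22 genes for lymphocyte and monocyte chemokines had a median of -0.35. Of these 2 were lower and none higher, against 1.76% and 0.288% of all genes. Both were ligands of CXCR3, the receptor of activated T and NK cells. Cxcl10 was at 1250, 1676, 1550 and 1089 CPM with BO-112 and 772, 859, 663 and 464 CPM with both agents (-1.03 ± 0.20, adjusted p = 0.0359). Cxcl11 was at 53.6, 93.7, 73.0 and 51.9 CPM against 30.4, 34.0, 21.1 and 19.5 CPM (-1.37 ± 0.24, adjusted p = 0.031). The third ligand, Cxcl9, was at 404 to 766 CPM against 181 to 377 CPM, with no overlap (-1.17 ± 0.28, adjusted p = 0.0889). Cxcl10 and Cxcl11 each lost their call in 5 of the 8 fits that left out a library, with highest adjusted p of 0.134 and 0.108.

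None of 9 neutrophil chemokine genes was called, and their median log2 fold change was 0.63. Cxcl2 was at 25.2, 11.4, 9.91 and 34.3 CPM with BO-112 and 54.7, 11.8, 20.1 and 83.4 CPM with both agents (0.87 ± 0.74, adjusted p = 0.606). Tumours 1 and 4 were the highest in each group, and the groups overlapped. Cxcl3 had 1.33 ± 0.83 (adjusted p = 0.468) and Cxcl5 0.73 ± 0.74 (adjusted p = 0.669). Among 24 neutrophil markers, with a median of 0.12, 2 were lower and none higher, against 1.76% and 0.288% of all genes. S100a9, an abundant calcium-binding protein of neutrophils, was at 17.3, 9.26, 7.45 and 15.9 CPM with BO-112 and 49.4, 9.52, 14.8 and 74.9 CPM with both agents (1.19 ± 0.72, adjusted p = 0.457). Lcn2, the siderophore-binding protein lipocalin-2, was at 11.6, 59.0, 5.99 and 10.1 CPM against 39.1, 20.8, 29.6 and 29.3 CPM (1.02 ± 0.70, adjusted p = 0.505). A single BO-112 tumour, tumour 2, was above all the combination tumours.

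The 2 lower genes of the neutrophil list are receptors that macrophages also carry. Clec4e, the Mincle receptor for mycobacterial glycolipids, was at 275, 329, 323 and 299 CPM with BO-112 and 123, 135, 54.5 and 107 CPM with both agents. The highest combination value was under the lowest BO-112 value, with a log2 fold change of -1.62 ± 0.27 (adjusted p = 0.0295). Fpr2, a formyl peptide receptor, was at 54.9, 60.2, 58.5 and 58.2 CPM against 41.7, 35.1, 19.5 and 27.8 CPM (-0.95 ± 0.20, adjusted p = 0.0441). Clec4e lost its call in 6 of the 8 fits that left out a library (highest adjusted p = 0.0848) and Fpr2 in 5 (0.119). The summed neutrophil markers were at 797 to 873 CPM with BO-112 and 349 to 747 CPM with both agents. Clec4e alone gave 275 to 329 CPM of that sum with BO-112 and 54.5 to 135 CPM with both agents. The sum was thus lower while the median log2 fold change of the list was above 0.

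Monocyte markers, with a median of -0.31, were lower in 3 of 19 and higher in none, against 1.76% and 0.288% of all genes. Ly6c2, which marks inflammatory monocytes, was at 228, 213, 171 and 148 CPM with BO-112 and 112, 118, 79.7 and 90.5 CPM with both agents (-0.92 ± 0.16, adjusted p = 0.0244). Ms4a4c fell by 0.69 ± 0.11 (adjusted p = 0.0119) and Ms4a6c by 0.47 ± 0.09 (adjusted p = 0.0265) on the log2 scale. Plac8, another gene of these monocytes, had -0.72 ± 0.20 (adjusted p = 0.126) with overlapping groups. The summed monocyte markers were at 3470 to 4198 CPM with BO-112 and 2614 to 3884 CPM with both agents and overlapped. Ms4a4c kept its call without any 1 library, while Ly6c2 and Ms4a6c each lost theirs in 4 of the 8 fits (highest adjusted p = 0.0762 and 0.0833). Of 28 macrophage markers none was called and the median was 0.04. Trem2, a lipid receptor of tissue macrophages, was at 17.2 to 41.6 CPM against 33.6 to 52.1 CPM (0.74 ± 0.26, adjusted p = 0.205). Cd163, the haemoglobin scavenger receptor, was at 0.0548 to 0.300 CPM against 0.154 to 0.804 CPM (1.49 ± 0.63, adjusted p = 0.254), on 11 reads or fewer in each library. None of 19 dendritic cell markers was called, with a median of 0.00.

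**Figure D3:**
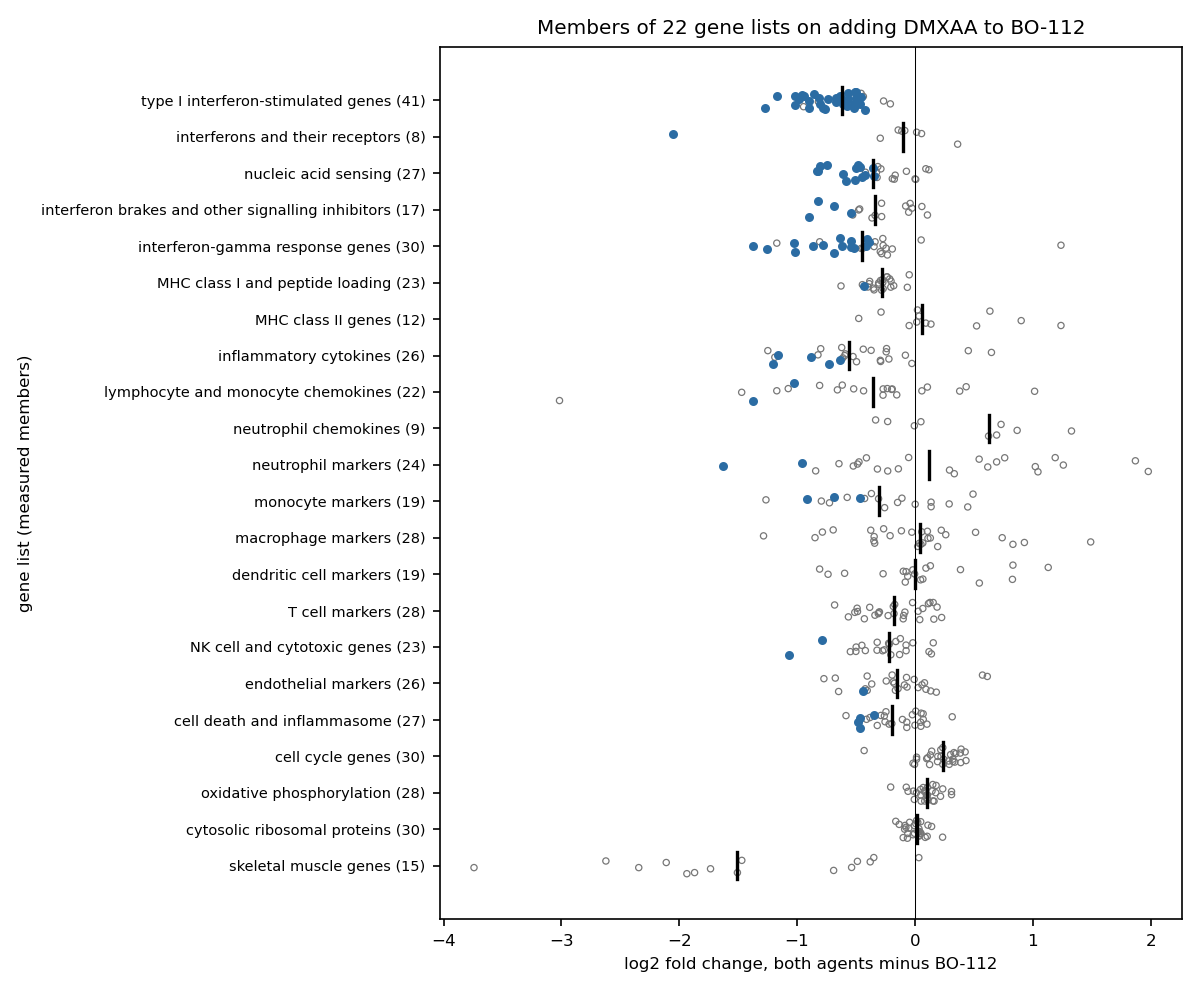
Each circle is a gene of 1 of 22 lists, out of 39, placed by its log2 fold change, both agents minus BO-112. Filled blue circles passed the test, open ones did not, and black bars are medians. The lists of costimulatory and checkpoint ligands and of iron genes, each with 1 called higher member, are not shown. Interferon-stimulated genes lie left of 0 as a group, with a median of -0.62, while ribosomal protein genes sit around 0.02.

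Cytotoxic genes, with a median of -0.22, were lower in 2 of 23 and higher in none, against 1.76% and 0.288% of all genes. Gzmb, the granzyme B protease of killer cells, was at 126, 171, 139 and 124 CPM with BO-112 and 56.6, 89.1, 54.0 and 69.8 CPM with both agents (-1.07 ± 0.16, adjusted p = 0.0137). Prf1, which encodes the pore-forming perforin, was at 46.0, 43.2, 48.2 and 39.6 CPM against 21.2, 29.2, 24.6 and 27.6 CPM (-0.79 ± 0.11, adjusted p = 0.00852). Neither gene's groups overlapped, and both kept their calls without any 1 library. The summed list was at 471 to 586 CPM with BO-112 and 313 to 433 CPM with both agents. None of 28 T cell markers was called, with a median of -0.17 and sums of 290 to 391 CPM against 221 to 362 CPM. Cd8a, a co-receptor chain of killer T cells, was at 4.06, 8.47, 13 and 6.38 CPM against 6.33, 7.55, 6.58 and 14 CPM (0.16 ± 0.37, adjusted p = 0.876). Of 10 measured B cell genes 1 was called: Pax5, a B cell transcription factor, fell by 1.29 ± 0.22 on the log2 scale (adjusted p = 0.0162), from 52 to 92 reads per library to 19 to 25. Pax5 lost its call without BO-112 tumour 2 (adjusted p = 0.0596).

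Ligands that check or help T cells moved in both directions. Of 18 such genes, with a median of -0.40, 3 were lower and 1 higher, against 1.76% and 0.288% of all genes. Cd274, which encodes PD-L1, was at 284, 309, 297 and 306 CPM with BO-112 and 180, 202, 122 and 208 CPM with both agents (-0.78 ± 0.15, adjusted p = 0.0265). Lgals9, which encodes galectin-9, fell by 0.53 ± 0.09 (adjusted p = 0.0173) and Pvr, a ligand of TIGIT, by 0.61 ± 0.14 (adjusted p = 0.0449), on the log2 scale. Vsir, which encodes the checkpoint molecule VISTA, was at 52.2, 46.5, 63.8 and 56.1 CPM against 82.6, 74.1, 77.9 and 119 CPM (0.68 ± 0.15, adjusted p = 0.0442). Vsir was above the BO-112 range in all 4 combination tumours. Lgals9 lost its call in 3 of the 8 fits that left out a library (highest adjusted p = 0.0663), Cd274 in 5 (0.0837), Pvr in 6 (0.12) and Vsir in 6 (0.123).

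DMXAA is known as an agent that damages tumour vessels. Of 26 endothelial markers, with a median of -0.15, 1 was lower, Flt1, and none higher, against 1.76% and 0.288% of all genes. Flt1, a VEGF receptor, was at 69.2 to 84.9 CPM with BO-112 and 49.2 to 65.1 CPM with both agents (-0.44 ± 0.10, adjusted p = 0.0441). Pecam1, the general endothelial marker CD31, was at 69.6, 69.2, 62.6 and 59.5 CPM against 63.7, 77.7, 55.1 and 77.6 CPM, with a log2 fold change of 0.06 and a 95% interval from -0.18 to 0.30. Kdr, the main VEGF receptor, was at 79.1 to 89.8 CPM against 31.3 to 64.8 CPM without overlap (-0.77 ± 0.20, adjusted p = 0.0949). Of 9 adhesion molecules 1 was lower, Vcam1, at 690 to 861 CPM against 409 to 581 CPM (-0.61 ± 0.11, adjusted p = 0.0195). Icam1 had -0.93 ± 0.23 (adjusted p = 0.0889), and the E-selectin gene Sele was at 0.307 CPM or less in all 8 tumours. Vegfa, a vessel growth factor, had -0.36 ± 0.14 (adjusted p = 0.238). Vcam1 lost its call without BO-112 tumour 2 or 3 (highest adjusted p = 0.0701) and Flt1 in 7 of the 8 fits (0.128).

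Genes of programmed cell death were lower in 4 of 27 and higher in none, against 1.76% and 0.288% of all genes. Their median was -0.20. Mlkl, the executioner of necroptosis, was at 180, 189, 183 and 184 CPM with BO-112 and 148, 135, 132 and 120 CPM with both agents (-0.46 ± 0.07, adjusted p = 0.0119), and kept its call without any 1 library. Casp4, an inflammatory caspase, Zbp1, a sensor of Z-form nucleic acid, and Gsdmd, the pore-forming gasdermin D, fell by 0.48 ± 0.10, 0.47 ± 0.10 and 0.35 ± 0.08 on the log2 scale (adjusted p = 0.0294, 0.0358 and 0.0448). These 3 lost their calls in 6, 7 and 7 of the 8 fits that left out a library (highest adjusted p = 0.0973, 0.105 and 0.129). Among 20 immediate early genes Junb and Nr4a3 were lower (-0.36 ± 0.08 and -0.91 ± 0.20, adjusted p = 0.0321 and 0.0472). Each lost its call in 7 of those fits. Of 15 complement genes Cfb, the factor B protease, was lower (-1.16 ± 0.25, adjusted p = 0.0403), with its call lost in 6 fits (0.109).

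Lists of growth, housekeeping, fibroblast, coagulation and stress genes had no called member, against 2.04% of all genes. The 30 cell cycle genes had a median of 0.24, with Mki67, the proliferation marker, at 194 to 245 CPM with BO-112 and 215 to 292 CPM with both agents (0.24 ± 0.11, adjusted p = 0.295). The 30 cytosolic ribosomal protein genes had a median of 0.02, the 28 oxidative phosphorylation genes 0.10, the 23 fibroblast and collagen genes -0.09 and the 27 glycolysis and hypoxia genes -0.25. In the coagulation list of 20 the median was -0.42 and in the stress and unfolded protein list of 20 it was -0.18. Values were negative in 26 of 27 glycolysis and hypoxia genes and in 18 of 20 in each of the coagulation and stress lists. They were negative in 18 of 23 fibroblast, 13 of 30 ribosomal, 5 of 28 oxidative phosphorylation and 3 of 30 cell cycle genes, against 47.4% of all genes. The stress genes summed to 6176 to 6811 CPM with BO-112 and 5288 to 6104 CPM with both agents, without overlap.

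The 51 higher genes had a median log2 fold change of 0.68, and 3 of the named ones kept their calls in all 8 fits that left out a library. Rab3il1, an activator of small GTPases, was at 16.1, 16.2, 18.3 and 14.9 CPM with BO-112 and 24.7, 33.6, 35.2 and 38.3 CPM with both agents (0.99 ± 0.13, adjusted p = 0.00852). Ntpcr, a nucleoside triphosphatase, was at 14, 18.2, 16.6 and 14.9 CPM against 29.3, 24.3, 32.2 and 34.4 CPM (0.91 ± 0.12, adjusted p = 0.00852). Sh2d1b1, an adaptor of SLAM-family receptors, was at 3.67, 4.63, 5.19 and 3.57 CPM against 7.18, 8.35, 9.14 and 12.5 CPM (1.10 ± 0.19, adjusted p = 0.0162). All combination tumours were above all BO-112 tumours in these 3 genes, which the rule that chose them required.

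Hpgds, the haematopoietic prostaglandin D synthase, was at 7.79, 9.38, 12.0 and 9.19 CPM with BO-112 and 14.8, 21.4, 18.3 and 27.9 CPM with both agents (1.08 ± 0.19, adjusted p = 0.0176). The call was lost without BO-112 tumour 2 (adjusted p = 0.0663). Cnr2, the cannabinoid receptor of immune cells, was at 2.49 to 3.19 CPM against 4.01 to 8.13 CPM (1.05 ± 0.21, adjusted p = 0.029). Other higher genes were Fgd2, Clec4a2, C5ar2 and Klhl6, with log2 fold changes of 0.96, 0.92, 0.91 and 0.79. The secreted Wnt modulator Sfrp2 and the clock gene Per3 each had 1.08, and Tmem273, Scamp5 and Letm2 had 0.95, 0.92 and 0.75. Steap3, an iron reductase, was the only called gene of 15 in the iron list, against 2.04% called and 0.288% higher over all genes. It was at 23.9 to 28.6 CPM against 33.0 to 40.6 CPM (0.48 ± 0.09, adjusted p = 0.0244). Of these 11 genes, Sfrp2 and Steap3 lost their calls in 4 of the 8 fits that left out a library, Clec4a2 and Fgd2 in 5, Cnr2 and Klhl6 in 6, Per3, C5ar2, Tmem273 and Scamp5 in 7 and Letm2 in 8, with highest adjusted p between 0.0739 and 0.129.

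**Figure D4:**
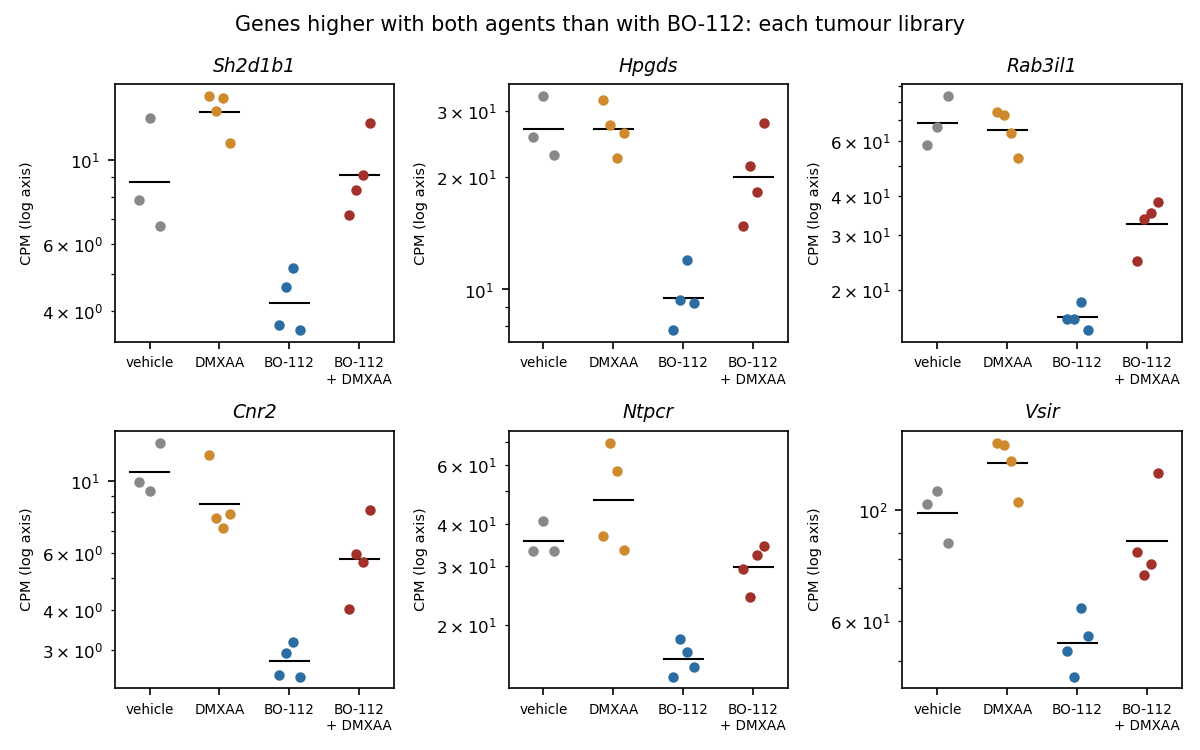
Each dot is a tumour library, with CPM on a log axis for 6 higher genes in the 4 groups and black lines at the geometric means. The BO-112 tumours are the lowest group in each panel, and for Rab3il1 the combination tumours, at 24.7 to 38.3 CPM, stay below the vehicle tumours.

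Levels in the other groups placed these genes. For Rab3il1 the mean was 69.4 ± 12.9 CPM (SD, n = 3) in vehicle tumours and 65.8 ± 9.69 CPM (SD, n = 4) with DMXAA alone, and for Hpgds it was 27.1 ± 5.16 and 27.1 ± 4.01 CPM. Isg15 was at 76.8 ± 17.7 CPM in vehicle tumours, 194 ± 46.5 CPM with DMXAA, 563 ± 65.1 CPM with BO-112 (SD, n = 4) and 305 ± 63.2 CPM with both agents (SD, n = 4). Nos2 was at 53.2 ± 32.7, 86.4 ± 56.3, 661 ± 88.5 and 280 ± 60.3 CPM, and Cd274 at 63.5 ± 28.5, 84.3 ± 46.0, 299 ± 11.3 and 178 ± 39.3 CPM, in the same order of groups. For Nos2 and Cd274 the vehicle and DMXAA values overlapped.

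The effect of DMXAA in the presence of BO-112 was also set against its effect in vehicle, by testing the log2 fold change of the main comparison minus that of DMXAA over vehicle in all 15 libraries. This difference was called in 239 genes (1.35%), negative in 204 and positive in 35. Libraries of the DMXAA group stood apart from each other: the 30 ribosomal protein genes summed to 75478 and 42242 CPM in tumours 2 and 3 and to 22800 and 25767 CPM in tumours 1 and 4, and the skeletal muscle genes to 1253 and 719 CPM in tumours 1 and 3. The difference was called in 456 genes without DMXAA tumour 2, 169 without tumour 3 and 192 without tumour 1. Among the 311 lower genes it was called in 89, and among the 51 higher genes in 6. The difference holds the contrast that chose both sets, so nothing is read from these counts. DMXAA minus vehicle was positive in 231 (74.3%) of the 311 lower genes, in 25 (49.0%) of the 51 higher genes and in 51.5% of all genes, and those libraries were not used to choose either set.

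Among the 41 interferon-stimulated genes, 25 had a called negative difference, against 204 of all 17712 genes. The difference contains the main comparison, in which 33 of the 41 were lower, so this count is no separate support. For Isg15 the log2 fold change was 1.34 ± 0.20 for DMXAA against vehicle and -0.90 ± 0.14 for both agents against BO-112. The difference was -2.24 ± 0.27 (adjusted p = 0.00214). For Rsad2 the values were 1.20 ± 0.31, -1.27 ± 0.17 and -2.48 ± 0.42 (adjusted p = 0.0135), and for Ifnb1 they were 1.28 ± 0.42, -2.05 ± 0.26 and -3.33 ± 0.57 (adjusted p = 0.0135). For the monocyte gene Ly6c2 they were 3.04 ± 0.32, -0.92 ± 0.16 and -3.96 ± 0.44 (adjusted p = 0.00214). In the neutrophil list 6 of 24 genes had a called negative difference. Lcn2 had 5.84 ± 0.75 without BO-112, 1.02 ± 0.70 with it and a difference of -4.82 ± 1.03 (adjusted p = 0.0343), and for S100a9 the difference was -3.74 ± 1.08 (adjusted p = 0.109). For Nos2, Cd274 and Gbp5 the difference did not pass (adjusted p = 0.272, 0.337 and 0.451). The count of 239 was 65 without vehicle tumour 1, 84 without vehicle tumour 3, 91 without combination tumour 4, 103 without BO-112 tumour 2, 105 without combination tumour 3, 116 without BO-112 tumour 1, 127 without BO-112 tumour 3, 139 without BO-112 tumour 4 and 456 without DMXAA tumour 2.

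**Figure D5:**
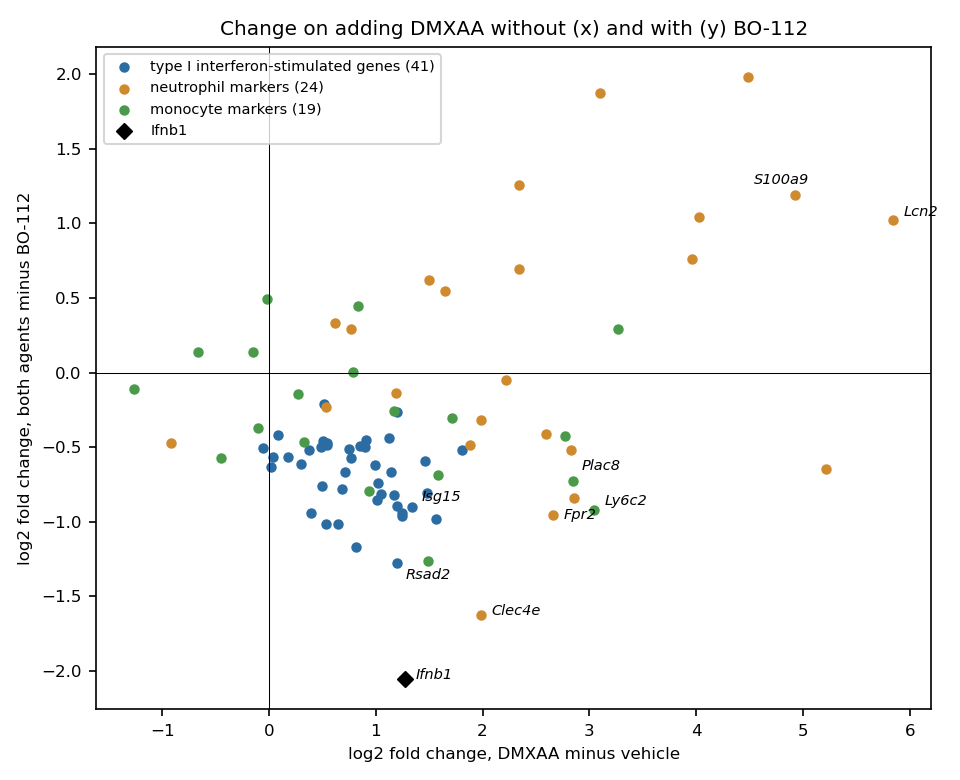
Each point is a gene, with the log2 fold change of DMXAA minus vehicle on the x axis and of both agents minus BO-112 on the y axis, for 41 interferon-stimulated genes, 24 neutrophil markers, 19 monocyte markers and Ifnb1. Interferon-stimulated genes lie below 0 on the y axis and mostly right of 0 on the x axis, while 12 of the 24 neutrophil markers lie above 0 on the y axis and 12 below, Clec4e (-1.62) and Fpr2 (-0.95) among the latter.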

How the data were processed

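RNA was measured by stranded, paired-end sequencing of MC38 tumours, and 8 of the 15 libraries entered the main comparison. STAR, edgeR, limma and the mm39 genome are named for the authors' work in the submitters' processing notes, with versions not given in the sources used here. The deposited table holds log2 CPM for 17712 genes, with 0.5 reads added before the log and library sizes that carry a scaling factor. This factor was 0.938 to 0.975 in the BO-112 libraries and 1.01 to 1.02 in the combination libraries, without overlap. Whole reads were recovered from it for 100% of the values, within 1e-06. A second deposited table has 15 columns without sample names and was not used.

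The deposited log2 values were fitted with limma 3.58.1 in R 4.3.3, with a mean for each group, a variance trend and robust moderation, on the 8 libraries alone, and p-values were adjusted by Benjamini-Hochberg over all 17712 genes with a threshold of 0.05. A count test was not used because the deposited unit is log2. The difference of the DMXAA changes used all 15 libraries. CPM values were computed from the recovered reads and the deposited library sizes; SDs are between tumours, SEs are those of the model, intervals are at 95%, and fold changes of genes near 1 CPM are understated by the added reads. All deposited genes were tested.

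The labels call the samples biological replicates. Their numbers gave no clear sign of pairing: deviations of same-numbered tumours correlated at -0.0145 to 0.155, over 0.1 in 1 of 4 pairs, so no block was used. Symbols came by Ensembl identifier from GENCODE M21 for 17636 genes, and 76 had none. Promoter windows are those of RefSeq on GRCm38.p6, another build than mm39, and no other coordinates are given.

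The comparison and the 39 gene lists (782 symbols, 731 measured) were chosen with earlier results of these data known. Some genes stand in several lists, so counts by list are not independent. Named genes are the 14 largest changes in each direction among called genes with a mean of at least 1 CPM, groups apart and a regular symbol, the 4 smallest p of each list, and a panel of cytokine and cell type genes. For the largest changes, groups apart were a condition of the choice and add no support. Edn1, the mitochondrial genes, Nnt, Nat8l, Tlr3, Ddx58, Irf7, Tmem173 and Cgas fall outside that rule and were chosen after their values were seen. Some genes that the rule takes are not reported here. Alternatives were other scalings, a prior count of 2 reads, a filter of 1 CPM in 4 libraries, limma-voom, array quality weights, all 15 libraries, a replicate block and leaving out each library.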

Additional observations from a re-analysis of the deposited data

Results flagged for a closer look

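The change on adding DMXAA differed between tumours with and without BO-112, by limma's test over all 15 libraries, in 31 of the 111 genes looked at. Over all genes this difference was called in 1.35%. Many of the 111 were chosen by the main comparison, which the difference contains, so nothing is read from this count. The difference on the log2 scale was -3.33 for Ifnb1, -2.24 for Isg15, -1.46 for Ifit1, -1.55 for Ifit2, -2.21 for Ifit3, -2.48 for Rsad2, -1.98 for Cmpk2, -1.25 for Herc6, -2.09 for Usp18, -2.06 for Bst2 and -2.29 for Irf7. It was -2.77 for Ifi205, -1.92 for Ifi211, -1.93 for Ifi204, -2.82 for Il1rn, -1.54 for Il15, -5.49 for Ptx3 and -0.97 for Nfkbia. Among myeloid and cytotoxic genes it was -3.61 for Clec4e, -3.61 for Fpr2, -4.82 for Lcn2, -3.96 for Ly6c2, -2.27 for Ms4a4c, -3.57 for Plac8 and -1.76 for Prf1. It was -1.08 for Lgals9, -0.93 for Mlkl and -0.78 for Casp4. Positive differences were found for Rab3il1 (1.07), Letm2 (1.16) and Nat8l (3.80), the last on few reads.

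A tumour far from the others of its group was found for 9 of 222 combinations of gene and group, and chance flags about 1 in 20. With both agents these were tumour 3 for Ifnar2 (46.9 CPM, the nearest other at 63.2) and mt-Nd4 (1422 CPM, nearest 1093), tumour 4 for Il6 (3.86 CPM, nearest 3.19) and Klhl6 (14.2 CPM, nearest 9.58), and tumour 1 for Tmem273 (4.09 CPM, nearest 6.20). With BO-112 they were tumour 4 for Nnt (0.893 CPM, nearest 1.20) and Cgas (29.2 CPM, nearest 35.2), and tumour 2 for Ifit3 (1189 CPM, nearest 1001) and Tmem173 (69.5 CPM, nearest 49.9).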

How the results depend on the processing

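The 362 called genes had the same sign under each alternative that tested them. The number of called genes was 175 under total count scaling, 594 under the replicate block, 0 in the fit to all 15 libraries and 1 without tumour 1 of both groups, and 75 to 528 when 1 library was left out. Under limma-voom, array quality weights, the prior count of 2, the stricter filter and the geometric mean scaling it was between 360 and 382. The number of lower interferon-stimulated genes, 33, was 16 with total count scaling, 0 in the fit to all 15 libraries, 18 in that fit with limma-voom and quality weights, 0 without tumour 1 of both groups, and 8 to 36 when 1 library was left out, while their median lay between -0.70 and -0.53. The block kept 77 of 79 named calls and dropped mt-Nd1 and mt-Cytb. The tumours share only a number, and whether it marks a shared day or litter was not tested. The count of genes with a different DMXAA change, 239, was 645 with array quality weights, 114 with total count scaling and 283 with the replicate block, and 65 to 456 when 1 library was left out. Total count scaling kept 52 of the 79 named calls and limma-voom 74. The cause of these shifts was not tested. Among the genes described, signs turned only for genes that were not called. Without replicate 1 of both groups Cd8a had a log2 fold change of -0.00648 and Acta1 of 1.07. When 1 library was left out the log2 fold change ranged from -0.13 to 0.43 for Cd8a, -0.00542 to 0.16 for Pecam1, -0.11 to 0.45 for Sele, -2.59 to 0.72 for Acta1, -0.0694 to 0.13 for Tmem173 and -0.16 to 0.00541 for Cgas. Tmem173 had -0.00187 with the geometric mean scaling and Cgas 0.0165 with total count scaling. Cd163 had 1 to 11 reads a library and was not called, and the part of depth in this was not tested.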

Other observations

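Transcripts of the mitochondrial genome, which encode subunits of the respiratory chain, were higher with both agents than with BO-112 in 4 of 12 measured protein-coding genes and lower in none. All 12 had a positive log2 fold change, with a median of 0.64, and in 8 the combination tumours lay entirely above. Over all genes 0.288% were higher and 4.05% lay entirely above. These genes were looked at after their values had been seen. For mt-Nd4, a complex I subunit, the level was 942, 782, 691 and 631 CPM in BO-112 tumours 1 to 4 and 1052, 1093, 1422 and 1092 CPM in combination tumours 1 to 4 (0.62 ± 0.13, adjusted p = 0.0356). mt-Nd1, mt-Nd2 and mt-Cytb had 0.64 ± 0.14, 0.67 ± 0.14 and 0.61 ± 0.14 (adjusted p = 0.0449, 0.041 and 0.0495). mt-Co1, a complex IV subunit, had 0.16 ± 0.09 (adjusted p = 0.373), at 7885 to 9240 CPM against 9170 to 10060 CPM. In vehicle tumours mt-Nd4 was at 1303 ± 265 CPM (SD, n = 3). The 28 genes of the oxidative phosphorylation list had no called member. The 4 calls were each lost in 6 or 7 of the 8 fits that left out a library, and reads may be shared with nuclear copies of these genes.

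Nnt, the mitochondrial nicotinamide nucleotide transhydrogenase, which is truncated in some C57BL/6 substrains, was at 14 to 22 reads per library with BO-112 and 4 to 7 with both agents (-1.48 on the log2 scale, adjusted p = 0.0327). Its call was lost in 6 of the 8 fits that left out a library and with total count scaling. Nat8l, the N-acetylaspartate synthase, had 0 reads in the 4 BO-112 libraries and 4 to 7 reads in the 4 combination libraries. Both were chosen after their values were seen.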
